A study of Rattus norvegicus with 12 samples.

Results

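Heat shock proteins (HSPs) and their co-chaperones were examined in mesenteric lymph nodes of suckling rats given conjugated linoleic acid (CLA), a group of fatty acid isomers found in ruminant fat and milk. Members were all genes whose array symbol begins with Hspa, Hspb, Hsph, Hsp90, Dnaja, Dnajb, Dnajc, Hsf or Bag followed by a number or letter, without Hspa5 and Hsp90b1, which belong to the unfolded protein response. This gave 70 genes of the 14217 genes on the array, each read by the probe set that was brightest on average over the 12 arrays. Messenger RNA was measured in Wistar pups at day 21, with 1 array per pup and 3 pups per group. Group A pups were born to dams eating 1% CLA for the last 2 weeks of gestation and for 3 weeks of suckling. These pups took CLA from the milk in suckling only, and their total period of CLA was 5 weeks. Group B pups had the same gestational diet and received CLA by oral gavage in suckling, also for 5 weeks in all. Group C pups were gavaged with CLA during the 3 weeks of suckling only. Group D pups came from dams on the standard diet and had no CLA. The CLA mix held 80% of the c9,t11 isomer and 20% of the t10,c12 isomer. The labels describe gavage for Groups B and C alone, so the handling of gavage and the route of CLA cannot be told apart.

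HSP70 proteins bind unfolded stretches of other proteins in cycles of ATP hydrolysis. J proteins (the DNAJA, DNAJB and DNAJC families) bring clients to HSP70 and start hydrolysis, while HSP110 and BAG proteins release the nucleotide and so end a cycle. HSP90 takes over partly folded clients such as kinases and steroid receptors, and small HSPs (HSPB) hold unfolded proteins without using ATP. In heat or oxidative stress the transcription factor HSF1 forms trimers that bind heat shock elements, inverted repeats of the triplet GAA, in the promoters of many of these genes. Lymph nodes of this region collect lymph from the gut, and chaperones there serve dividing lymphocytes as they do in other proliferating cells.

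The promoters below are shown because they hold such repeats and belong to members whose mRNA behaved differently between the diets. Hsph1 and Dnaja1 were lower in Group A, Dnajb1 and Bag3 were higher, and Hspb1 was low in the gavaged groups and in 1 of the 3 arrays of Group D. Sequences are from RefSeq for the GRCr8 assembly, on the gene's own strand from 5′ to 3′, and capitals mark GAA and TTC triplets in the cores GAANNTTC and TTCNNGAA. They lie at chr12:10427238-10427369 (plus strand) for Hsph1, at chr5:60638198-60638450 (plus) for Dnaja1, at chr19:41431092-41431177 (minus) for Dnajb1, at chr1:192533303-192533360 (plus) for Bag3 and at chr12:26432378-26432455 (minus) for Hspb1.
Hsph1: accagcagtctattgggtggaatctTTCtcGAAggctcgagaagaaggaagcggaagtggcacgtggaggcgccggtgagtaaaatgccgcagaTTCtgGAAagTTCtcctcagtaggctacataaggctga
Dnaja1: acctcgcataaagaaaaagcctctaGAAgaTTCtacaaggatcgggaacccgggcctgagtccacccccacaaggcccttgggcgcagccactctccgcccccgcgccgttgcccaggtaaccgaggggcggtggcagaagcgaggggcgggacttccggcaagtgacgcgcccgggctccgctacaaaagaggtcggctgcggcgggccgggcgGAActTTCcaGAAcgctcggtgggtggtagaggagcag
Dnajb1: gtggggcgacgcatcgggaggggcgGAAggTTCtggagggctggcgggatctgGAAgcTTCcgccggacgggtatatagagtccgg
Bag3: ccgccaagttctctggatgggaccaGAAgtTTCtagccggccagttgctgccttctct
Hspb1: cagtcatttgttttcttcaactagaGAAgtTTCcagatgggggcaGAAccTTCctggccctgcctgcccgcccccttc
The first core of Hsph1 began 105 bases before the annotated start and that of Bag3 132 bases before it. The cores of Hspb1 began 129 and 109 bases before the start, and the first of Dnajb1 began 11 bases before it. In Hsph1 and in Dnaja1, 2 of the 3 cores overlapped and shared a triplet.

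All values are MAS5 intensities that were put on the log2 scale and quantile normalized, and differences are on that scale. Of 16 markers of lymphocytes and lymph nodes, 13 were measured, and all 13 were above array background on all 12 arrays so that the defining markers of the labelled tissue were present. Their summed intensity ranged between 15684 and 18333 on the arrays of Group A, 16543 and 17857 on those of B, 17470 and 18313 on those of C, and 14830 and 17108 on those of D. Group D replicate 3 stood apart from its group. Over all probe sets it correlated at a mean of 0.896 with replicates 1 and 2, but at 0.931 with the arrays of Group B and at 0.930 with Group C arrays. The summed intensity of 15 smooth muscle markers was 13958 and 14603 in Group D replicates 1 and 2, but 3056 in replicate 3, and results that rest on this array are given with and without it. Groups A, B and C were all compared with the same 3 arrays of Group D, so these comparisons are not independent of each other. A lower value in whole tissue may come from fewer cells of a type or from less RNA per cell, which cannot be told apart here.

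When CLA came with the dam's milk (Group A against Group D), several HSP70, HSP110 and DNAJA members were lower, while some DNAJB members and Hsf1 were higher. At an adjusted p under 0.05 (limma), 15 of the 70 members were lower, 10 were higher and 45 did not pass. Over all genes, 12.0% were lower and 16.0% were higher by the same test, so the count of lower members lies above the share among all genes and that of higher members near it. A fold of at least 2 was reached by 10 of the lower members and 1 of the higher ones. The share of all genes at this fold was not counted. Over all genes, the 5th and 95th percentiles of the difference were -1.28 and 1.10. The median difference was 0.00 over the members and 0.15 over all genes. The 11 members of the HSP70 and HSP110 family had a median of -0.98, with 5 lower and 0 higher, and the 4 DNAJA members had a median of -0.68, with 2 lower and 0 higher. By contrast, the 12 DNAJB members had a median of 0.57, with 0 lower and 3 higher. These 3 medians kept their signs with deposited values and with centring on the 75th percentile. The 23 DNAJC members were mixed, with 7 lower and 3 higher. With the deposited values, which were not scaled between arrays, 13 members were lower and 0 higher in place of 15 and 10, beside 9.64% and 1.84% of all genes. On the 3 arrays of Group A the ratio of 3′ to 5′ signal of the hexokinase control was 2.84 to 4.96, against 1.84 to 2.53 in Group D, and its part in these results was not tested. The same ratio was 1.21 to 1.53 in Group A and 1.06 to 1.22 in Group D for Gapdh, and 1.37 to 1.79 in Group A and 1.30 to 1.91 in Group D for beta-actin.

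**Figure D1:**
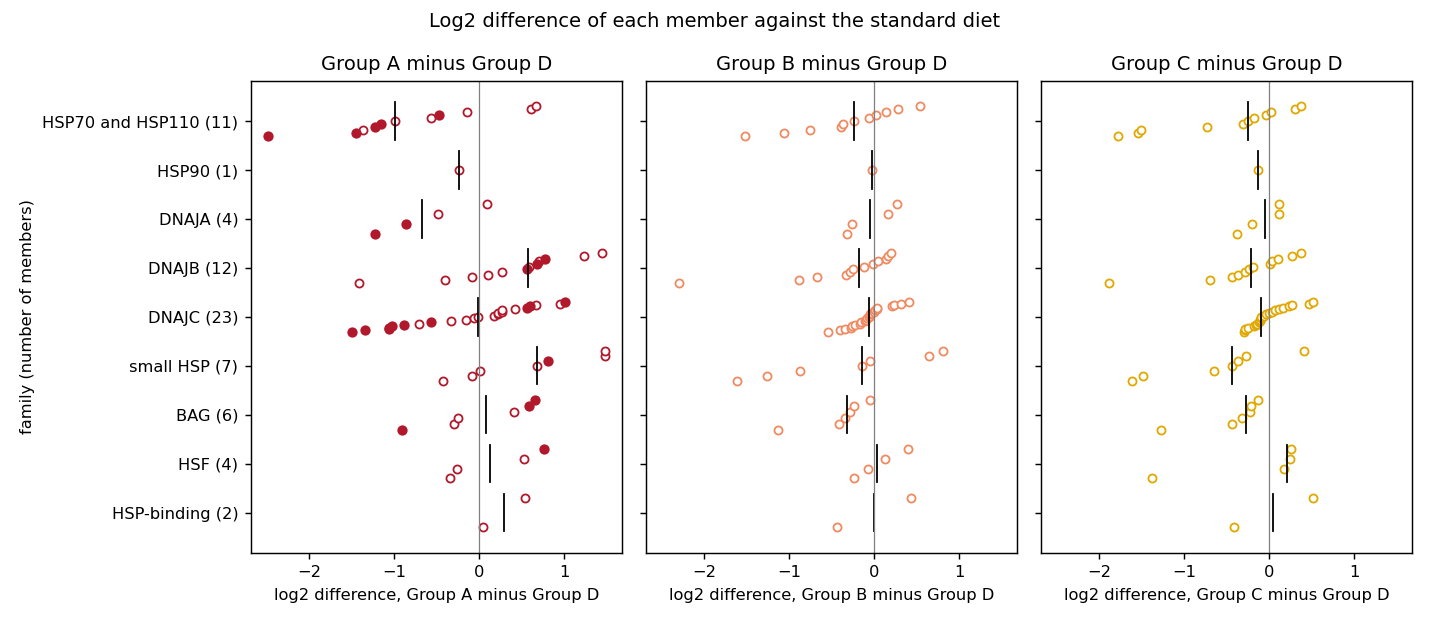
Log2 difference of each of the 70 members between Groups A, B or C and Group D (horizontal axis), by family (vertical axis). Filled circles passed an adjusted p under 0.05, open circles did not, and black bars are family medians. In Group A the HSP70 and HSP110 median is -0.98 and the DNAJB median 0.57, and no circle is filled in Groups B and C.

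Among the HSP70 proteins, Hspa13 showed the widest gap. Hspa13 (also called Stch) codes for a short HSP70 that lacks the peptide-binding part. Its log2 intensity was 4.75, 5.03 and 3.31 in Group A, against 6.97, 6.84 and 6.75 in Group D, and it lay between 6.49 and 7.23 on the 6 arrays of Groups B and C. No array of Group A reached any other group. It fell 5.61-fold (log2 difference -2.49 ± 0.36 SE, adjusted p = 0.000446).

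Hspa9 encodes mortalin, the HSP70 of the mitochondrial matrix that pulls in imported proteins. It had 7.36, 7.59 and 7.74 in Group A, against 9.06, 9.12 and 8.86 in Group D, a 2.73-fold fall (-1.45 ± 0.12, adjusted p = 9.03e-06). In Groups B and C it lay at 8.94 to 9.24, overlapping Group D. Of its other 3 probe sets, those with differences of -2.33 and -2.10 passed too, and that with -0.82 did not (adjusted p = 0.163). The chaperonin Hspd1, which works beside mortalin in the matrix and is no member, fell as well (-1.24 ± 0.10, adjusted p = 8.52e-06), while its lid Hspe1 had a difference of -0.18 (adjusted p = 0.343).

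Hspa4 and Hsph1 encode HSP110 proteins, which free ADP from HSP70, and both were lower in Group A. Hspa4 (Apg-2) had 6.57, 6.53 and 6.62 in Group A, against 7.73, 7.51 and 8.15 in Group D, a fall of 2.33-fold (-1.22 ± 0.15, adjusted p = 0.000133). Hsph1 (Hsp105), with 3 heat shock element cores in the promoter shown above, had 8.04, 7.49 and 7.86 in Group A and 9.09, 8.89 and 8.86 in Group D. It fell 2.22-fold (-1.15 ± 0.14, adjusted p = 0.000114). The groups did not overlap for either gene, and the second probe set of Hsph1 differed by -2.32 (adjusted p = 0.000145). A smaller fall was seen for Hspa14 (-0.47 ± 0.12, adjusted p = 0.0124), the HSP70 that works at the ribosome. Its J partner there is Dnajc2 (Mpp11, or zuotin), which had 6.34, 5.46 and 6.12 in Group A and 7.31, 7.36 and 7.75 in Group D, and fell 2.83-fold (-1.50 ± 0.21, adjusted p = 0.000373). Dnajc2 has another probe set that was not above background on any array of Groups A or D and gave 0.23 (adjusted p = 0.858). The mean of its probe sets therefore lost the call, at -0.64 (adjusted p = 0.195).

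**Figure D2:**
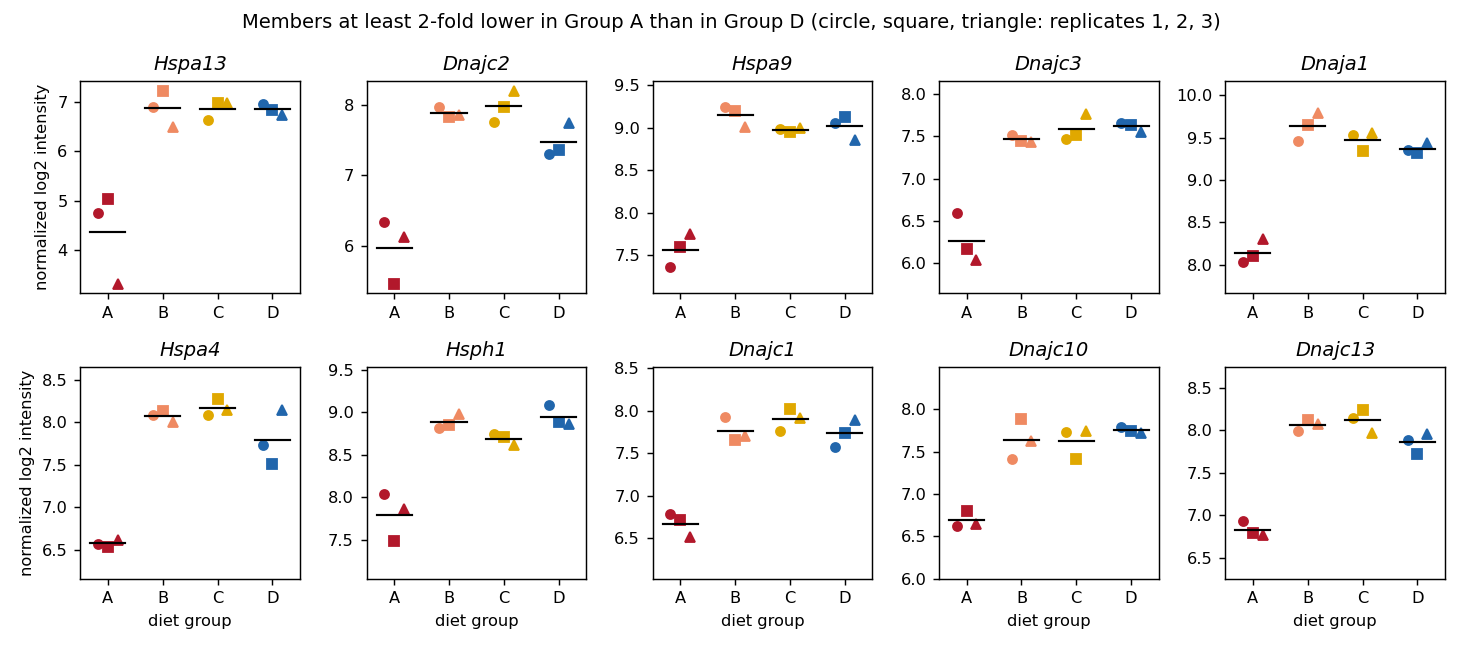
Normalized log2 intensity (vertical axes) of the 10 members at least 2-fold lower in Group A than in Group D, by diet group, with 1 symbol per array and black bars for group means. Each of the 3 Group A arrays lies below all arrays of Groups B, C and D, and for Hspa13 these values are 3.31 to 5.03 in Group A.

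Dnaja1 and Dnaja2, J proteins of the cytosol, were lower too. Dnaja1 had 8.04, 8.10 and 8.30 in Group A, against 9.35, 9.32 and 9.43 in Group D, a fall of 2.33-fold (-1.22 ± 0.11, adjusted p = 2.25e-05). Its second probe set differed by -0.82 (adjusted p = 0.00145). Dnaja2 had 9.06, 8.72 and 8.89 in Group A and 9.76, 9.73 and 9.77 in Group D (-0.86 ± 0.11, adjusted p = 0.000257). Group D was tight for both genes, and no array of Group A reached it. The other DNAJA members did not pass. Cytosolic Dnaja4 differed by 0.09 (adjusted p = 0.790) and mitochondrial Dnaja3 by -0.49 (adjusted p = 0.0567), which became -0.66 without Group D replicate 3 (adjusted p = 0.00536).

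J proteins of the endoplasmic reticulum (ER) formed a further set. Dnajc3 (P58IPK), a lumenal co-chaperone of the ER HSP70, had 6.59, 6.18 and 6.04 in Group A and 7.66, 7.64 and 7.55 in Group D, and fell 2.54-fold (-1.35 ± 0.15, adjusted p = 7.93e-05). Dnajc10 (ERdj5), which reduces disulfides of misfolded proteins, fell 2.09-fold (-1.06 ± 0.14, adjusted p = 0.000275), and its second probe set gave -1.09. Dnajc1, a J protein of the ER membrane, fell by the same factor (-1.06 ± 0.13, adjusted p = 0.000181), though a second probe set above background on all arrays gave -0.35 (adjusted p = 0.433). Not all ER members followed. Dnajb9 (ERdj4), a target of the unfolded protein response, had 7.70, 8.44 and 8.35 in Group A and 7.49, 7.50 and 7.46 in Group D, and rose 1.60-fold (0.68 ± 0.17, adjusted p = 0.0132). Dnajb11 (ERdj3) differed by -0.08 (adjusted p = 0.789). The list of 6 genes of the integrated stress response, which shares inputs with ER stress, had 0 lower and 2 higher in Group A, Trib3 (1.12) and Ppp1r15a (0.83). Over all genes, 12.0% were lower and 16.0% higher.

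The other members that fell were Dnajc13, which acts in endosome sorting, Bag5, Dnajc7 and Dnajc9. Dnajc13 had 6.93, 6.79 and 6.76 in Group A against 7.88, 7.73 and 7.96 in Group D (-1.03 ± 0.12, adjusted p = 8.68e-05). Dnajc7 (Tpr2) contacts HSP70 and HSP90 at once and differed by -0.88 (adjusted p = 0.000309), although a second probe set gave 0.79 (adjusted p = 0.473), and the remaining one was not above background on any array. Bag5 differed by -0.90 (adjusted p = 0.0102) and the histone chaperone Dnajc9 by -0.57 (adjusted p = 0.00298). Without Group D replicate 3, 20 members were lower and 8 higher in Group A, where the shares of all genes were 13.4% and 14.6%.

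HSP90 depended on which probe set was read. Hsp90ab1 encodes the constitutive cytosolic HSP90 and is the only HSP90 member with a probe set of its own. Its brightest probe set had 11.33, 11.06 and 11.23 in Group A, against 11.52, 11.47 and 11.35 in Group D (-0.24 ± 0.10, adjusted p = 0.111). The second probe set gave -1.19 and passed (adjusted p = 0.000752). The array also holds 6 probe sets that carry several symbols each, and their values cannot be given to any single gene. Of these, 2 carry Hsp90aa1, the stress-inducible HSP90, together with a pseudogene of it. The dimmer of them had 6.34, 6.28 and 6.44 in Group A, against 9.08, 9.07 and 9.43 in Group D, and 9.43 to 9.83 in Groups B and C. This 7.16-fold gap (-2.84 ± 0.12, adjusted p = 2.06e-07) exceeded that of every member. The brighter gave -1.59 (adjusted p = 1.01e-05). A probe set carrying Hspa8 (the constitutive HSP70) and Haus8l2 gave -0.83 (adjusted p = 0.00141), and that carrying Hspa1a and Hspa1b gave -0.06 (adjusted p = 0.929). Of the 2 probe sets carrying Dnajb6 and pseudogenes of it, the first gave -0.75 (adjusted p = 0.00242) and the second 0.37 (adjusted p = 0.0885).

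**Figure D3:**
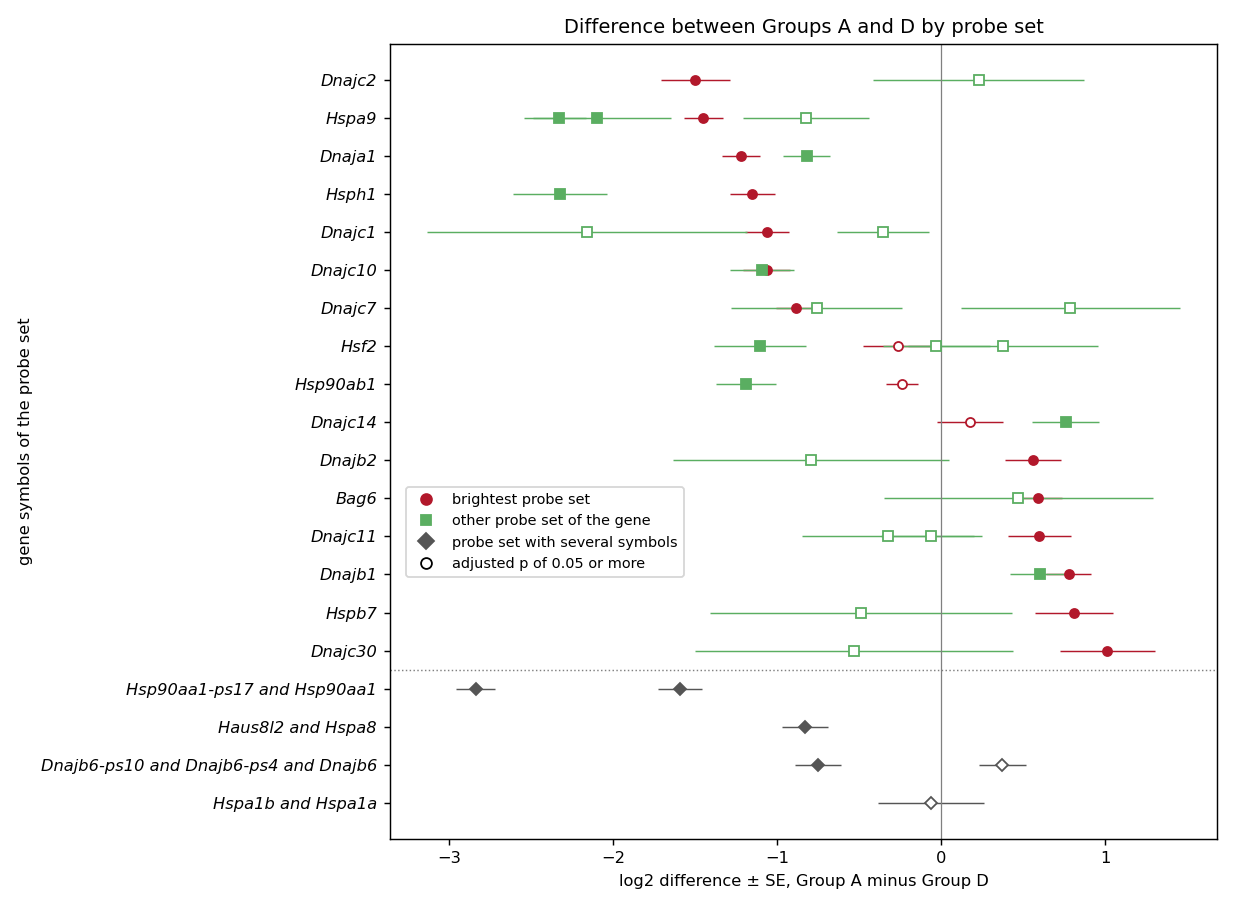
Log2 difference between Groups A and D with its SE (horizontal axis) for each probe set of the members with several probe sets, at least 1 of which passed, and below the dotted line for probe sets with several symbols. Probe sets of Hspa9, Dnaja1, Hsph1, Dnajc10 and Hsp90ab1 all lie below 0, with those of Hsp90ab1 at -0.24 and -1.19, whereas those of Dnajc2 range from -1.50 to 0.23.

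The members that rose in Group A included Hsf1, read here as mRNA and not as HSF1 activity, and its textbook targets Dnajb1 and Bag3. The stress-inducible Hspa1a did not pass against Group D (0.61, adjusted p = 0.179), and neither did Hspb1 (-0.42, adjusted p = 0.642). Of the members with a heat shock element core besides Dnajb1 and Bag3, Hsph1 (-1.15), Dnaja1 (-1.22) and Hspa9 (-1.45) fell. The remaining 8, Hspb1 among them, did not pass. The probe sets carrying the stress-inducible Hsp90aa1 also fell (-2.84 and -1.59). Hsf1 had 7.05, 7.18 and 7.03 in Group A, against 6.26, 6.34 and 6.37 in Group D, and 6.38 to 6.57 in Groups B and C. It rose 1.70-fold (0.76 ± 0.13, adjusted p = 0.00124). Dnajb1 (HSP40), the stress-inducible J protein of the cytosol, had 9.23, 9.38 and 9.28 in Group A and 8.74, 8.65 and 8.16 in Group D, a rise of 1.72-fold (0.78 ± 0.14, adjusted p = 0.00171). Its second probe set gave 0.60. Bag3, which hands clients of HSP70 and HSPB8 to autophagy, had 8.10, 8.05 and 7.80 in Group A and 7.22, 7.61 and 7.15 in Group D (0.66 ± 0.14, adjusted p = 0.00581). Group A did not overlap Group D for Hsf1, Dnajb1 or Bag3. Hsf2, a second heat shock factor, had differences of -0.26 (adjusted p = 0.442) at its brightest probe set and of -1.10 (adjusted p = 0.0147), -0.03 and 0.38 at the others.

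Some mitochondrial J proteins were among those that rose, while mitochondrial Dnaja3 lay on the lower side and did not pass (-0.49, adjusted p = 0.0567). Dnajc30, of the inner membrane, had 7.39, 7.55 and 7.41 in Group A and 6.80, 6.93 and 5.57 in Group D (1.01 ± 0.29, adjusted p = 0.0259). Its low value in Group D replicate 3 set the size of the gap, which was 0.58 without that array (adjusted p = 0.0228). Its second probe set was above background on only 2 arrays, and the mean of both gave 0.24 (adjusted p = 0.778). The call was also lost without replicate 1, 2 or 3 of Group A (adjusted p = 0.0601, 0.0861 and 0.0618). Dnajc19, of the import motor, rose by 0.57 (adjusted p = 0.00604) and Dnajc11, a partner of the cristae complex, by 0.60 (adjusted p = 0.0435). Dnajc11 did not pass with centring on the 75th percentile (adjusted p = 0.0584), and its second probe set gave -0.06 (adjusted p = 0.929). The remaining members that passed were Hspb7, Bag6 and Dnajb2. Hspb7, a small HSP of heart and muscle, had 6.66, 6.98 and 6.67 in Group A and 5.88, 6.18 and 5.82 in Group D (0.81 ± 0.24, adjusted p = 0.0288), and did not pass without Group D replicate 3 (adjusted p = 0.0557). Its second probe set gave -0.49 (adjusted p = 0.776). Bag6, which shields hydrophobic tails of new proteins, differed by 0.59 (adjusted p = 0.0123) and Dnajb2 by 0.56 (adjusted p = 0.0332). Dnajb2 did not pass without Group D replicate 3 (adjusted p = 0.0737). The count of 10 was 6, 4 and 5 without replicates 1, 2 and 3 of Group A, and 4 when only Groups A and D were fitted.

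**Figure D4:**
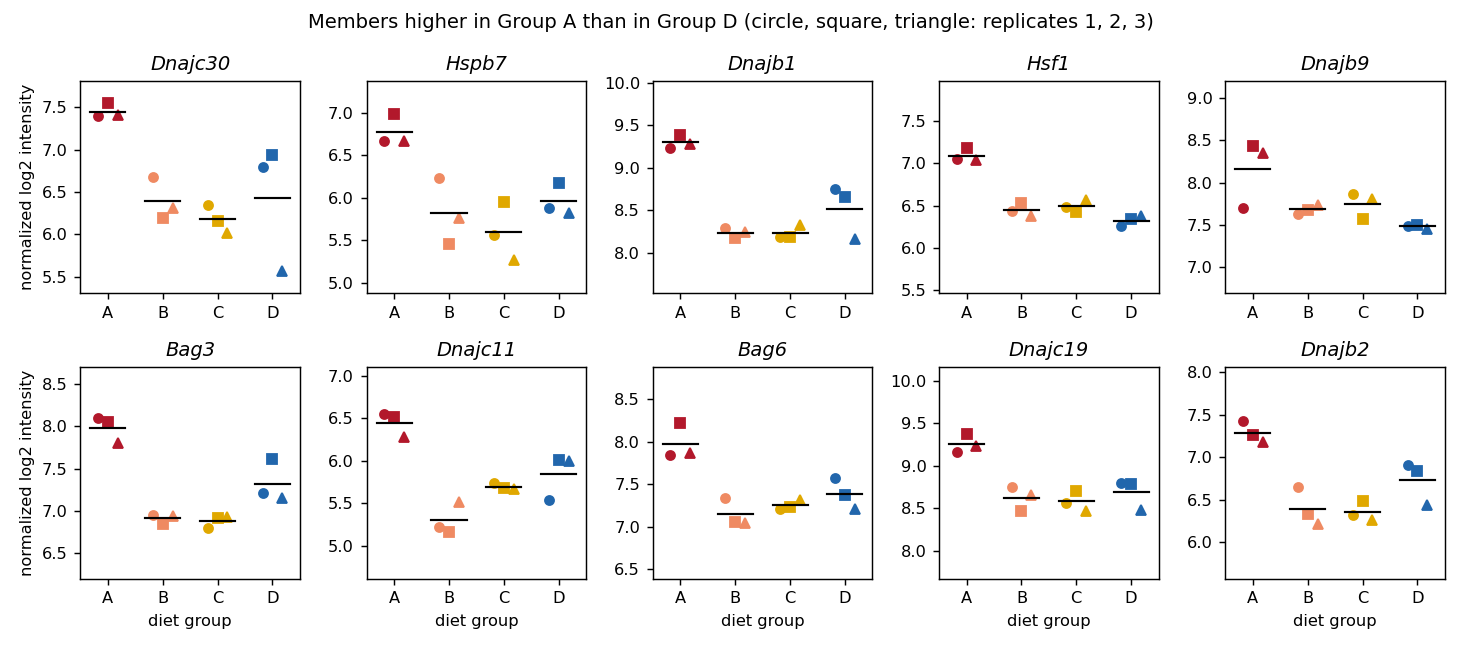
Normalized log2 intensity (vertical axes) of the 10 members higher in Group A than in Group D, by diet group, with 1 symbol per array and black bars for group means. Hsf1 lies at 7.03 to 7.18 in Group A and at 6.26 to 6.57 on all arrays of Groups B, C and D, and the triangle of Group D (replicate 3) is low for Dnajb1 at 8.16 and for Dnajc30 at 5.57.

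The comparison of Group A with the mean of Groups B and C sets CLA from milk beside CLA by gavage. Its differences use no array of Group D, but its SE and p-values rest on the spread within all 4 groups, Group D included. Group C had no gestational CLA, so gestational exposure and duration differ here together with the route. Here 18 members were lower and 21 higher, against 16.9% and 31.6% of all genes. The higher count thus lies near the share among all genes, while the lower count is above it. The median was 0.39 over the members and 0.32 over all genes. With deposited values the split was 9 lower and 33 higher, beside 7.05% and 40.6% of all genes. At 2-fold, 10 members were lower and 10 were higher. The share of all genes at this fold was not counted, and the percentiles given above for Group A against Group D were here -1.38 and 1.31. Hspa13 differed by -2.51 ± 0.31 (adjusted p = 5.86e-05), Dnajc2 by -1.96 ± 0.18 (adjusted p = 6.71e-06), Hspa4 by -1.55 ± 0.13 (adjusted p = 2.86e-06), Hspa9 by -1.50 ± 0.10 (adjusted p = 8.86e-07) and Dnaja1 by -1.41 ± 0.10 (adjusted p = 9.40e-07). Dnajc13 (-1.26), Dnajc3 (-1.25), Dnajc1 (-1.16), Dnajc7 (-1.12) and Dnaja2 made up the rest of the lower set. The call of Dnajc7 was lost with the mean of its probe sets (0.0018, adjusted p = 0.997) and that of Dnaja2 with deposited values (-0.33, adjusted p = 0.252). Across families, the DNAJA median was -0.61 and the DNAJB median 0.57, while the HSP70 and HSP110 median of -0.14 turned to 0.35 with deposited values. The 3′ to 5′ ratio of hexokinase was 1.62 to 3.24 in Group B and 1.82 to 2.62 in Group C. In Group A it was 2.84 to 4.96, and its part here was not tested. The Gapdh ratio was 1.10 to 1.12 (B), 1.10 to 1.28 (C) and 1.21 to 1.53 (A). For beta-actin it was 1.44 to 1.79 (B), 1.60 to 1.74 (C) and 1.37 to 1.79 (A).

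On the higher side, Bag3 was 2.12-fold above Groups B and C (1.09 ± 0.12, adjusted p = 3.13e-05) and Dnajb1 was 2.10-fold above them (1.07 ± 0.12, adjusted p = 2.78e-05). Hspa1a, the stress-inducible HSP70, had 6.77, 6.82 and 6.56 in Group A, against 5.10, 5.42 and 5.56 in Group B, with 5.77, 4.76 and 5.62 for Group C. The difference was 1.35 ± 0.25 (adjusted p = 0.00109). Hspa1a and Hspa1b are near-identical copies, and the probe set that carries both symbols gave 0.51 (adjusted p = 0.179), so the value of Hspa1a is uncertain. Dnajb5, a relative of Dnajb1, differed by 1.27 ± 0.20 (adjusted p = 0.000315), Dnajc30 by 1.16 and Hspb7 by 1.07. With the mean of their probe sets, Dnajc30 (0.87, adjusted p = 0.131) and Hspb7 (0.58, adjusted p = 0.314) did not pass. Hspb6 (1.47, adjusted p = 0.0326) and Hspb8 (1.44, adjusted p = 0.00984) are described below with the members that were low in Group D replicate 3. Dnajc22 (1.30) lost its call without Group A replicate 1 (adjusted p = 0.0625). Dnajb3 passed as well, but it was above background on only 6 of the 12 arrays and has no measured fold. Hsf1 differed by 0.62 (adjusted p = 0.000795) and the brightest probe set of Hsf2 by -0.58 (adjusted p = 0.0226).

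CLA by gavage gave no member that passed. In Group B against Group D, 0 members were lower and 0 higher at an adjusted p under 0.05, where the shares of all genes were 0.0141% and 0.00703%. Group C again gave 0 and 0, beside shares of 0.0352% and 0.00703%. At an unadjusted p under 0.05, 10 members were lower and 1 higher in Group B, against 10.5% and 6.47% of all genes. In Group C 11 were lower and 4 higher, against 12.2% and 7.42%. The median over the members was -0.11 in Group B and -0.15 in Group C, beside -0.11 and -0.12 over all genes. Of the members that fell at least 2-fold in Group A, Hspa13 differed by 0.02 (Group B) and 0.01 (Group C), Hspa9 by 0.13 and -0.04, and Hsph1 by -0.07 and -0.26. Dnajc2 lay on the higher side, at 0.41 and 0.51, and did not pass with or without Group D replicate 3. Without Group D replicate 3, 15 members passed as lower and 2 as higher for Group B (12.8% and 7.15% of all genes), and 17 and 3 did for Group C (15% and 8.04% of all genes).

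Most of the members with wide gaps in Groups B and C were high in Group D replicates 1 and 2 and low in replicate 3. Hspb6 (Hsp20), a small HSP of smooth and striated muscle, had 4.97, 4.20 and 4.97 in Group B, 5.12, 4.57 and 4.82 in Group C, while Group D had 7.31, 7.17 and 4.49. The difference was -1.62 ± 0.57 in Group B (adjusted p = 0.228) and -1.49 ± 0.57 in Group C (adjusted p = 0.214). Without Group D replicate 3 it was -2.53 in Group B (adjusted p = 5.79e-05) and -2.41 in Group C (adjusted p = 7.11e-05).

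Hspb1 (Hsp27), the small HSP that stabilizes actin filaments, had 5.68, 6.39 and 6.31 in Group B, 5.47, 5.92 and 5.94 in Group C, while Group D had 7.91, 8.53 and 5.73. Bag2, a BAG protein that inhibits the ubiquitin ligase Stub1, had 5.15, 4.89 and 4.86 in Group B, 4.87, 4.87 and 4.75 in Group C, while Group D had 6.73, 6.62 and 4.96. For both genes, replicate 3 of Group D lay with the gavaged pups. Without it, Hspb1 differed by -2.09 (Group B) and -2.44 (Group C) from Group D, and Bag2 by -1.71 and -1.85, all past the adjusted threshold. With it, Hspb1 differed by -1.26 in Group B (adjusted p = 0.271) and -1.61 in Group C (adjusted p = 0.180), and Bag2 by -1.14 (adjusted p = 0.215) and -1.27 (adjusted p = 0.167).

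Hspb8, the partner of Bag3, showed the pattern too, with 5.39, 5.68 and 5.58 in Group B, 5.90, 5.62 and 5.79 in Group C, while Group D had 7.23, 7.10 and 4.94. Hspa2, an HSP70 best known from the testis, had 2.16, 2.44 and 3.75 in Group C and 4.64, 5.23 and 3.11 in Group D (-1.55, adjusted p = 0.212), and was above background on 9 of the 12 arrays. Without Group D replicate 3, Hspb8 passed at -1.62 in Group B (adjusted p = 3.68e-05) and -1.40 in Group C (adjusted p = 7.40e-05), and Hspa2 at -2.16 in Group C (adjusted p = 0.0147). The smooth muscle list was likewise low in the gavaged groups and in Group D replicate 3. Its summed intensity ranged between 4161 and 4682 on Group A arrays, 2766 and 3259 on Group B arrays and 2579 and 3069 on Group C arrays, and was 13958, 14603 and 3056 on those of Group D. Of the 15 muscle markers, 15 (Group B) and 14 (Group C) were lower at an unadjusted p under 0.05 and 0 at an adjusted one, and without Group D replicate 3, 15 and 14 passed the adjusted test. Markers of enteric neurons and mesothelium were also highest in Group D replicates 1 and 2. The sum of 8 enteric neuron markers ranged between 107 and 111 on arrays of Group A, 58.9 and 92.1 on those of B and 67.1 and 97.4 on those of C, while the arrays of Group D had 531, 524 and 69.6. That of 7 mesothelium markers ranged between 379 and 404 (A), 303 and 359 (B) and 249 and 365 (C), while Group D had 964, 1023 and 560. The sum of 6 fibroblast markers was 9685, 13329 and 8038 in Group D replicates 1, 2 and 3, so replicate 3 was again the lowest. That of 10 striated muscle markers was 579, 704 and 504 in Group D. It ranged between 884 and 1086 on arrays of Group A, 512 and 602 on those of B and 523 and 552 on those of C. The gut epithelium and glia lists were not low in Group D replicate 3. The sum of 5 gut epithelium markers was 110, 202 and 327 in Group D replicates 1, 2 and 3, and that of 3 glia markers was 167, 237 and 328. Without Group D replicate 3, 6 of the 8 enteric neuron markers passed as lower against Group D for either gavaged group, as did 5 (Group B) and 6 (Group C) of the 7 mesothelium markers. The part of muscle, nerve or mesothelium in the values of Hspb1, Hspb6, Hspb8, Bag2 and Hspa2 was not tested.

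In Group A, Hspb1, Hspb6, Hspb8 and Bag2 lay above all arrays of the gavaged pups. Hspb6 had 6.30, 6.23 and 6.18 and Hspb8 had 7.08, 7.12 and 7.11, so that the 3 arrays lay close together. The difference from Group D was -0.08 for Hspb6 (adjusted p = 0.947) and 0.68 for Hspb8 (adjusted p = 0.332), with the spread of Group D as wide as above. Hspb1 (6.74, 7.07 and 7.10) and Bag2 (5.91, 5.92 and 5.74) likewise did not pass against Group D. Without Group D replicate 3, Hspb1 (-1.25, adjusted p = 0.00350), Hspb6 (adjusted p = 0.0145) and Bag2 (-0.82, adjusted p = 0.00889) were lower in Group A too, and Hspb8 differed by -0.06 (adjusted p = 0.829). Hspb8 in Group A lay at the level of Group D replicates 1 and 2, and the smooth muscle sum was lower in Group A than in those replicates. The part of muscle in the Hspb8 values was not tested. Against Groups B and C, Bag2 was higher by 0.96 (adjusted p = 0.0331), and Hspb1 differed by 1.02 (adjusted p = 0.0973). The call of Hspb6 against Groups B and C was lost without any 1 of the 3 arrays of Group A (adjusted p = 0.0790 to 0.0965).

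**Figure D5:**
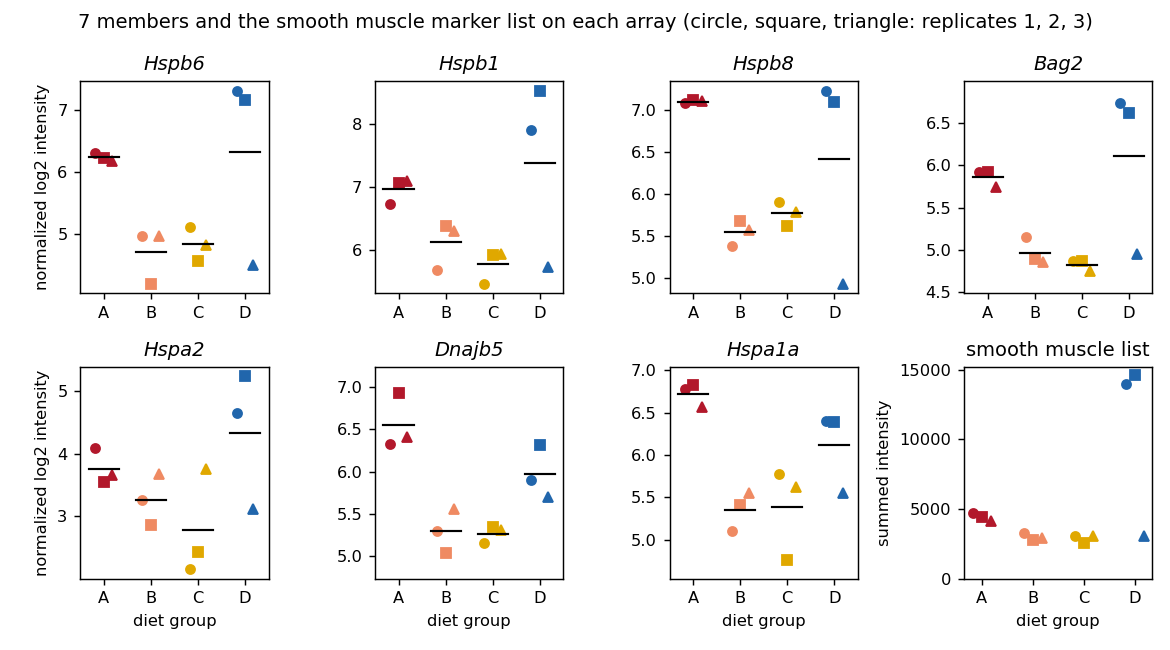
Normalized log2 intensity of 7 members and, in the last panel, the summed intensity of 15 smooth muscle markers (vertical axes), by diet group, with 1 symbol per array and black bars for group means. Hspb6, Hspb1, Hspb8, Bag2 and the muscle list are high in Group D replicates 1 and 2 and low in replicate 3, where Hspb6 is at 4.49.

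Other members with low unadjusted p in the gavaged groups were Hspa14, Bag3, Dnajb5 and Hspa1a. Bag3 had 6.95, 6.85 and 6.94 in Group B, with 6.81, 6.92 and 6.92 for Group C, all below the 7.22, 7.61 and 7.15 of Group D, with differences of -0.41 (adjusted p = 0.223) and -0.44 (adjusted p = 0.180). For Dnajb5 the differences were -0.67 (Group B) and -0.70 (Group C), and for Hspa1a -0.76 and -0.73. Hspa14 differed by -0.37 and -0.31. In the other direction, Hspa4 differed by 0.28 (Group B) and 0.37 (Group C), and Hspbap1 by 0.51 (Group C). None of these passed when adjusted over all probe sets, and all of them did without Group D replicate 3. Hspa4 was then higher by 0.46 in Group B (adjusted p = 0.0127) and 0.55 in Group C (adjusted p = 0.00410), and Hspbap1 by 0.64 in Group C (adjusted p = 0.0410). Hspa1a was then lower, at -1.04 and -1.01 (adjusted p = 0.0190 and 0.0199), as were Dnajb5 (-0.81 and -0.84), Bag3 (-0.50 and -0.53) and Hspa14 (-0.43 and -0.37), with adjusted p between 0.0180 and 0.0388. Dnajc7 also passed as higher (0.37 in both groups, adjusted p = 0.0187 and 0.0170) and Dnajb1 as lower (-0.47 in both, adjusted p = 0.00480 and 0.00409). For Hspa4 and Hspbap1 the sign in Group C turned with deposited values, at -0.29 and -0.14.

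Gestational CLA among gavaged pups (Group B against Group C) gave 0 members and 0% of all genes in either direction in limma at an adjusted p under 0.05. At an unadjusted p under 0.05 a single member, Hspa1l, was higher, and it was not above background on any of the 12 arrays. The median over the members was 0.00. Dnajc11 came next, with 5.21, 5.17 and 5.52 in Group B against 5.74, 5.68 and 5.67 in Group C (-0.40, unadjusted p = 0.0602).

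Partners of the chaperones outside the family names were read from a list of 32, of which 29 were measured. In Group A, 8 were lower and 2 higher than in Group D, beside 12.0% and 16.0% of all genes, and the list's median was -0.07. Besides Hspd1, the lower ones included Sugt1, an HSP90 co-chaperone of immune receptors (-1.35 ± 0.14, adjusted p = 6.53e-05), St13 (Hip), which holds HSP70 in its ADP form (-1.06 ± 0.12), Ppid, an HSP90-bound isomerase (-1.06 ± 0.16), and Stip1 (Hop), which links HSP70 to HSP90 (-0.57, adjusted p = 0.0439). The higher ones were Gak, which uncoats clathrin with HSP70 (0.43), and Tomm34 (0.54). Several core partners did not pass, among them Cdc37 (0.07), Ahsa1 (-0.27), Ptges3 (-0.07) and Stub1 (0.25). In Groups B and C 0 passed in either direction. At an unadjusted p under 0.05, 3 were lower and 2 higher in Group B, beside 10.5% and 6.47% of all genes. In Group C these counts were 6 and 1, beside 12.2% and 7.42%.

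Of 15 immediate early genes, which answer stimulation within minutes, 6 were higher in Group A than in Group D, 1 was lower and 8 did not pass, beside 16.0% and 12.0% of all genes higher and lower. Their median was 0.56, against 0.15 over all genes. Egr1 differed by 0.78 ± 0.12 (adjusted p = 0.000660), Nr4a1 by 0.81 ± 0.17 (adjusted p = 0.00514) and Zfp36 by 0.63 ± 0.10 (adjusted p = 0.00103), and Klf6 fell by 0.56. Against Groups B and C, 12 were higher and 1 lower, where the shares of all genes were 31.6% and 16.9%. Of 8 oxidative stress genes, 3 were higher (Hmox1, Gclm and Sqstm1, by 0.55 to 0.81) and 2 were lower (Gclc and Slc7a11) in Group A than in Group D. Whether immediate early genes have a part in the values of Hsf1, Dnajb1 and Bag3 was not tested.

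Promoter windows of 250 bases before to 50 after the start were matched for 56 of the 70 members. A heat shock element core (GAANNTTC or TTCNNGAA, both strands, overlaps counted) was present in 13 of the 56, or 23.2%, against 15.9% of all 33469 promoters of the same length. At least 2 cores were present in 6 of the members, or 10.7%, against 2.28% of all promoters. They were Dnaja1 and Hsph1 with 3 each, and Dnajb1, Hspa9, Hspb1 and Hspb6 with 2 each. By response in Group A, cores were found in 3 of the 13 matched members that were lower, in 2 of the 8 that were higher and in 8 of the 35 that did not pass. Promoters with a core thus occurred on both sides, as the sequences of Hsph1 and Dnaja1 beside those of Dnajb1 and Bag3 show. A match of letters is not a bound site. The members without a match were Bag4, Dnaja2, Dnajb4, Dnajc2, Dnajc8, Dnajc11, Dnajc12, Dnajc15, Dnajc22, Dnajc24, Hsf1, Hsf4, Hspa12a and Hspb2.

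Some members carried little signal. Hspa1l was above background on 0 arrays, Dnajb7 and Hspb3 on no more than 3, Hsf2bp on 5, Dnajb3 and Hspa4l on 6 and Dnajb13 on 7. Hspa4l, an HSP110 gene, was not above background on any array of Group A but was on all 3 of Group D, which makes it at least 1.29-fold lower in Group A (adjusted p = 0.202). Dnajb3 was at background on the 3 arrays of Group B, with a bound of 1.16-fold lower there than in Group D, and did not pass (adjusted p = 0.231). Only 2 of the 3 arrays of Group D were above background, so this bound rests partly on an unmeasured value. All other members that did not pass in Group A are shown in the plot of differences by family.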

How the data were processed

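RNA of mesenteric lymph nodes from 12 Wistar pups, 3 drawn at random by the study from the 10 of each group, was hybridized to Affymetrix Rat Genome 230 2.0 arrays. Litters were held at 10 pups per dam, so a group may be a single litter, and diet and litter then cannot be told apart. The p-values measure the spread between these arrays. The authors deposited linear MAS5 intensities per probe set, not scaled between arrays, with array medians of 19.3 to 38.5. The log2 values of 31099 probe sets were quantile normalized, after 30 zeros took the smallest positive value, and intensities under 1 were raised to 1. Normalization gives all arrays the same distribution, so that a shift of most genes in a group would be lost. After it, 31042 probe sets without controls were tested in R 4.3.3 using limma 3.58.1, where the 12 arrays shared a fit of the 4 group means, a variance trend, a two-sided test and Benjamini-Hochberg adjustment within each comparison. The number of arrays limits the precision, and 3 arrays against 3 cannot give an exact permutation p under 0.1. Background was the 95th percentile over the 27 control probe sets of spikes left out of the hybridization. A bound ("at least") takes the dimmer group at its background. The script was tested on simulated data. Gene symbols came from the platform annotation, where 20826 probe sets carry 1 symbol, 436 several and 9780 none. Figures were drawn with matplotlib 3.10.9.

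Members and gene lists were chosen with earlier results of these data known. Named genes were, against Group D and against Groups B and C, members that differed at least 2-fold in Group A with an adjusted p under 0.05. In the other comparisons they were the 10 members with the lowest unadjusted p. Members named in the study's tables and Hsf1, Hsf2, Hspb7, Dnajb1, Bag1 and Bag3 were added. Bag1 differed by -0.29 in Group A (adjusted p = 0.211), and by -0.44 without Group D replicate 3 (adjusted p = 0.0352). Other genes named in the text were chosen after their values were seen. Alternatives were deposited values, a floor of 32, centring on the 75th percentile, no variance trend, a filter on the dimmest 40% of probe sets, only the groups compared, unadjusted p, other choices of probe set, the replicate number as a block and the omission of each array.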

Additional observations from a re-analysis of the deposited data

How the results depend on the processing

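Over the named members, 1257 of 1331 pairs of a result and an alternative kept their direction and their side of the threshold, 21 lost the call, 47 gained it and 6 changed sign. With deposited values, which keep the unequal array medians, the median difference of all genes from Group D was -0.02 for Group A, -0.65 for Group B and -0.80 for Group C, and Group A stood 0.73 above the mean of B and C. Quantile normalization gave 0.15, -0.11, -0.12 and 0.32 for these medians, and 75th percentile centring gave 0.16, -0.13, -0.14 and 0.34. With deposited values 13 members were lower and 0 higher in Group A, 31 were lower in Group C, where 35% of all genes were lower, and the split of Group A against B and C was 9 lower and 33 higher. The higher members in Group A against Group D numbered 4 with only the groups compared, 6 with the mean of all probe sets of a gene and 4 to 10 when 1 array was left out. Leaving out 1 array gave 0 to 15 lower and 0 to 2 higher in Group B, and 0 to 17 lower and 0 to 3 higher in Group C, where the upper ends are those without Group D replicate 3. At an unadjusted p the counts were 10 lower and 1 higher in Group B, 11 lower and 4 higher in Group C, and 1 higher in Group B against Group C. The sign turned with deposited values for Dnaja1 in Group B (-0.39), Hspa4 in Group C (-0.29) and Hspbap1 in Group C (-0.14). It also turned for Dnajc7 between Group A and the gavaged groups with the mean of its probe sets (0.0018), and in Group B against Group C for Dnajc11 without probe sets that may match several transcripts (0.23) and for Hsp90ab1 with centring on the 75th percentile (-0.0048). The causes of these changes were not tested. Under a floor of 32, members whose arrays all lay at the floor gave no value.

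Replicate numbers showed no strong pairing of the samples. Over 18 pairs of arrays with the same number, deviations from group means correlated at -0.02 to 0.08 (median 0.010). Over 36 pairs with different numbers they correlated at -0.09 to 0.04 (median -0.007). Values this small cannot show whether a weak pairing exists. With the replicate number as a block, 15 members were lower and 9 higher in Group A against Group D, 18 lower and 21 higher in Group A against B and C, and 0 in the other comparisons.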
